A study of Mus musculus with 9 samples.

Results

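The circadian clock genes examined here were 10 genes chosen by name: the D-box activators Dbp, Tef and Hlf, the repressors Per1, Per2, Per3 and Cry1, the nuclear receptors Nr1d1 and Nr1d2, and the activator Arntl (also called Bmal1). All probes carrying 1 of these symbols in the array's probe table were taken. They were 10 probes for 9 of the 10 genes, out of 26423 probes and 17742 named genes on the array. Per3 had 2 probes, the other 8 genes had 1 each, and no probe was listed under Cry1. The list was drawn up because Dbp differed strongly between the groups, so the values of Dbp are given as a description without a test, while the other 9 probes entered by gene name.

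RNA came from the colon of female BALB/c mice and was hybridised to 9 arrays in 3 groups of 3. Vanillin mice had an intraperitoneal injection of the carcinogen azoxymethane (AOM), 12.5 mg/kg, on day 1. Dextran sodium sulfate (DSS), which damages the gut lining, was in their water at 2.5% over 5 days starting on day 8, and 16 days of plain water came next. There were 3 further DSS cycles, and 100 mg/kg vanillin was given by mouth for 91 days. Sham mice had the same AOM and DSS course without vanillin, and Mock mice had no treatment. The ages of the mice, the hour at which tissue was taken, and whether an array held 1 mouse or a pool are not stated in the labels. Transcripts of clock genes swing over the day, so group and hour of sampling cannot be told apart in these data, and p-values measure only the spread between arrays, which may be technical.

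In mouse peripheral tissues the clock is a loop of transcription. ARNTL pairs with CLOCK or NPAS2 and switches on genes that carry an E-box, among them the Per and Cry genes, whose proteins then repress that pair, and Nr1d1 and Nr1d2, whose proteins (REV-ERB) repress Arntl at an element that the ROR activators also use. DBP, TEF and HLF form the PAR bZIP family, which carries the rhythm to other genes through the D-box. Transcripts of Dbp and the Per genes and those of Arntl and Npas2 run close to opposite phase over the day.

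Promoter windows are printed for measured members in which a motif of the clock loop was found, to show the letters themselves. The windows are RefSeq sequences of build GRCm38.p6, running from 250 bases before to 50 bases after a transcript start. They covered 9 of the 10 genes in 12 windows, and none was listed for Per2. Capitals mark a match on either strand to the E-box CACGTG, the D-box TTATGTAA or TTACGTAA, or the ROR/REV-ERB element TAGGTCA. No match overlapped another.
Per3, chr4:151044616-151044915, minus strand: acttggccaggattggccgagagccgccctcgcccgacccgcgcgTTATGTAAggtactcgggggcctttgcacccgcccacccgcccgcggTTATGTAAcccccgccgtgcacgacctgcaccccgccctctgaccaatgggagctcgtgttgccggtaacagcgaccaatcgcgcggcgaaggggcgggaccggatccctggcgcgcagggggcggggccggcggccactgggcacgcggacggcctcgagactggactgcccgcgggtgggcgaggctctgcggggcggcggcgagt
Tef, chr15:81802423-81802722, plus strand: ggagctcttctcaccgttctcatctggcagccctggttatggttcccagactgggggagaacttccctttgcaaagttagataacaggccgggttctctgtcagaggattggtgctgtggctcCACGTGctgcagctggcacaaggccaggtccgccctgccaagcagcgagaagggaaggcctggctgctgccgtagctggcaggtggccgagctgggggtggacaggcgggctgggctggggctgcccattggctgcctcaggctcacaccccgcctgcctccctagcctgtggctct
Per1, chr11:69098699-69098998, plus strand: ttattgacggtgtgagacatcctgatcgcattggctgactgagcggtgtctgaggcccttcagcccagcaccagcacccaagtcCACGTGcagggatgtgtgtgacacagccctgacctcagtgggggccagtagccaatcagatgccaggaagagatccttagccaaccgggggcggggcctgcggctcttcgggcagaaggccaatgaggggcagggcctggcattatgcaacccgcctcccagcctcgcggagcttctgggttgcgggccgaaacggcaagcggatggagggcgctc
Arntl, chr7:113207261-113207560, plus strand: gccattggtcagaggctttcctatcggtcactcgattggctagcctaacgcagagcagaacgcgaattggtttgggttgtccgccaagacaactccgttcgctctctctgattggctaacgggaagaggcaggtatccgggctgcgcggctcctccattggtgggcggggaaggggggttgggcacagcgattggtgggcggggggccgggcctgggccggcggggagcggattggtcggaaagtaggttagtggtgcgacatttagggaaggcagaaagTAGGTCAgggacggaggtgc

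The Per3 window held the D-box 2 times, 205 and 158 bases before the start, and it was the only member window with a D-box, which 1.06% of all 32851 windows held. Both Tef windows held an E-box, as did 1 of the 2 windows of Per1 and the window of Cry1, against 7.15% of all windows. The second Arntl window held the ROR/REV-ERB element, beginning 30 bases after the base that marks the start, against 2.61% of all windows. The windows of Dbp, Hlf, Nr1d1 and Nr1d2 held none of these letters. A match describes the sequence only.

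All 3 PAR bZIP genes were highest in Mock, lowest in Sham and in between in Vanillin, and in no case did the arrays of any pair of groups overlap. Dbp had intensities of 2263, 2736 and 2586 in Vanillin and 1362, 1221 and 1258 in Sham, against 5645, 5913 and 5389 in Mock. Its mean was 1280 ± 73.5 in Sham and 5649 ± 262 in Mock (SD, n = 3 each). On the scale of log2(intensity + 16), used for every change given here, Dbp differed by 0.97 (SE 0.079) in Vanillin minus Sham, by -2.13 in Sham minus Mock and by -1.16 in Vanillin minus Mock. Every Vanillin array lay above every Sham array and below every Mock array.

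Tef, the closest of its relatives to Dbp in size of change, had 1235, 1387 and 1231 in Vanillin and 584, 598 and 551 in Sham, against 2574, 2534 and 2631 in Mock. Tef fell by 2.13 in Sham minus Mock (SE 0.060, limma adjusted p = 3.2e-09), rose by 1.13 in Vanillin minus Sham (adjusted p = 8.2e-07) and fell by 1.00 in Vanillin minus Mock (adjusted p = 1.2e-06). The Tef level in Vanillin thus lay about midway, on the log2 scale, between those of Sham and Mock.

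Hlf had the largest change of the members both in Vanillin minus Sham and in Sham minus Mock. Its intensity was 541, 546 and 584 in Vanillin and 60, 54 and 45 in Sham, against 1146, 1040 and 1066 in Mock. The ratio of the group means was 0.0489 for Sham over Mock and 10.5 for Vanillin over Sham. Hlf was thus close to the dim end of the array in Sham alone. Hlf fell in Sham minus Mock, with a change of -4.00 (SE 0.084, limma adjusted p = 4.2e-10), which was rank 329 among the decreases of all 26423 probes. It rose by 3.06 in Vanillin minus Sham (adjusted p = 6.4e-09) and fell by 0.94 in Vanillin minus Mock (adjusted p = 1.7e-05). Because Hlf was dim in Sham, the size depends on the constant added before the logarithm: with 1 and 64 in place of 16 the Sham minus Mock change was -4.34 and -3.30.

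**Figure D1:**
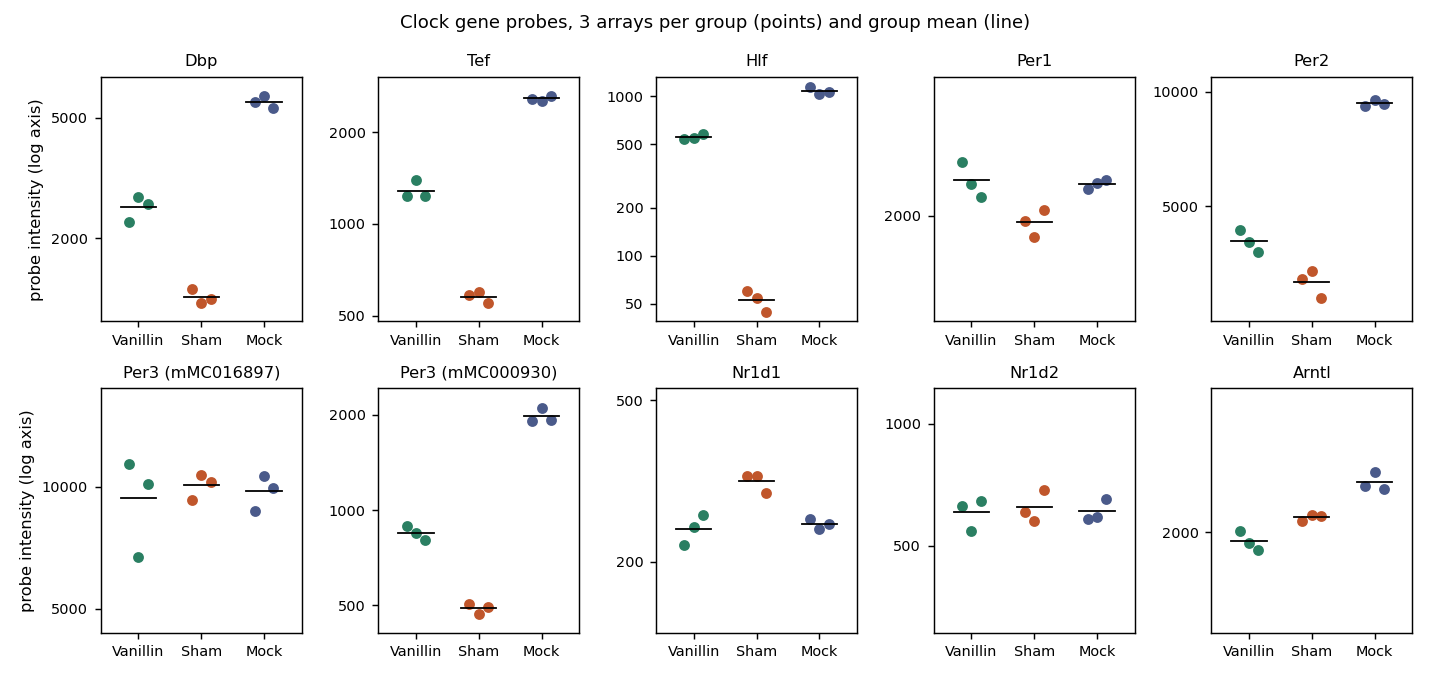
Probe intensity (log axis, a separate range for each panel) of the 10 clock gene probes in Vanillin, Sham and Mock, with a point for each of the 3 arrays and a line at the group mean. Dbp, Tef, Hlf, Per2 and the Per3 probe mMC000930 were highest in Mock and lowest in Sham with no overlap, whereas Nr1d1 was highest in Sham, at 296 to 326.

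The Period genes, whose proteins repress ARNTL with its partners, did not move alike. Per2 had 4345, 4026 and 3800 in Vanillin and 3224, 3382 and 2869 in Sham, against 9163, 9501 and 9299 in Mock. All 3 groups were separate, but Vanillin lay much nearer to Sham than to Mock. Per2 fell by 1.56 in Sham minus Mock (SE 0.073, limma adjusted p = 1.1e-07) and fell by 1.20 in Vanillin minus Mock (adjusted p = 1.3e-06), and rose by 0.36 in Vanillin minus Sham (adjusted p = 0.0033).

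The 2 probes of Per3 disagreed. Probe mMC000930 had 889, 848 and 805 in Vanillin and 505, 470 and 492 in Sham, against 1914, 2109 and 1922 in Mock. It fell by 1.98 in Sham minus Mock (SE 0.060, limma adjusted p = 5.1e-09), rose by 0.77 in Vanillin minus Sham (adjusted p = 1.1e-05) and fell by 1.21 in Vanillin minus Mock (adjusted p = 3.5e-07). These changes had the order of groups seen for Dbp. The brighter probe mMC016897 had 11342, 6710 and 10131 in Vanillin and 9285, 10686 and 10252 in Sham, against 8702, 10619 and 9921 in Mock. Its groups overlapped, its 3 changes lay between -0.13 and 0.05 (SE 0.18) and none was called, and its second Vanillin array was the lowest of the 9. Which of the probes reports the Per3 transcript was not tested.

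Per1, which hormones and stress can also induce, moved little. Its intensity was 2717, 2396 and 2223 in Vanillin and 1943, 1774 and 2068 in Sham, against 2324, 2405 and 2446 in Mock. The Sham arrays were the lowest, and those of Vanillin and Mock overlapped. Per1 fell by 0.31 in Sham minus Mock (SE 0.083, limma adjusted p = 0.0099) and rose by 0.34 in Vanillin minus Sham (adjusted p = 0.0088). Vanillin minus Mock was 0.03 (SE 0.083) and was not called (adjusted p = 0.81).

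The REV-ERB genes followed neither pattern. Nr1d1 had 220, 243 and 261 in Vanillin and 326, 325 and 296 in Sham, against 255, 241 and 248 in Mock, so that Sham was the highest group. Nr1d1 rose by 0.33 in Sham minus Mock (SE 0.068, limma adjusted p = 0.0025) and fell by 0.37 in Vanillin minus Sham (adjusted p = 0.0021), while Vanillin minus Mock was -0.04 (adjusted p = 0.67). Nr1d2 had 626, 543 and 646 in Vanillin and 607, 575 and 686 in Sham, against 581, 589 and 653 in Mock. Its groups overlapped in every comparison, and its 3 changes lay between -0.04 and 0.03 (SE 0.088) with none called. Both probes are in the middle range of the array, whose median intensity was 319.6 to 320.1.

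Arntl, the activator that REV-ERB represses, had 2016, 1876 and 1811 in Vanillin and 2128, 2207 and 2185 in Sham, against 2590, 2816 and 2556 in Mock. It was the only member with Vanillin as the lowest group and no overlap between any pair of groups. Arntl fell by 0.29 in Sham minus Mock (SE 0.059, limma adjusted p = 0.0024) and by 0.48 in Vanillin minus Mock (adjusted p = 0.00013). It also fell by 0.19 in Vanillin minus Sham (adjusted p = 0.024), but this call was lost in several settings. The limma adjusted p was 0.0639 with the replicate number as a block in the 6 arrays of these groups, 0.0649 without Sham 2, 0.057 without Sham 3, 0.071 without Vanillin 2 and 0.0776 without Vanillin 3.

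Beside Dbp, 6 of the 9 member probes fell in Sham minus Mock (Tef, Hlf, Per1, Per2, Per3 mMC000930 and Arntl), Nr1d1 rose and 2 were not called. Of all probes, 59.7% were called in this comparison, 23.2% lower and 36.5% higher. In Vanillin minus Sham, 5 of the 9 rose, Nr1d1 and Arntl fell and 2 were not called, where 47.9% of all probes were called, 15.7% higher and 32.2% lower. The uncalled probes were Per3 mMC016897 and Nr1d2 in both comparisons, joined by Per1 and Nr1d1 in Vanillin minus Mock. There, 5 fell, none rose and 4 were not called, where 50.7% of all probes were called, 26.2% lower and 24.5% higher. The arrays of the compared groups did not overlap for 7 of the 9 in Sham minus Mock, 7 in Vanillin minus Sham and 5 in Vanillin minus Mock, beside 67.1%, 56.3% and 60.4% of all probes. The median change of the 9 probes was -0.31 in Sham minus Mock, 0.34 in Vanillin minus Sham and -0.48 in Vanillin minus Mock, beside 0.10, -0.09 and -0.00 over all probes. Since the list was made around a gene that differed in these comparisons, nothing is read from the counts. The comparisons share arrays pairwise, so the changes of a gene in them are not independent.

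**Figure D2:**
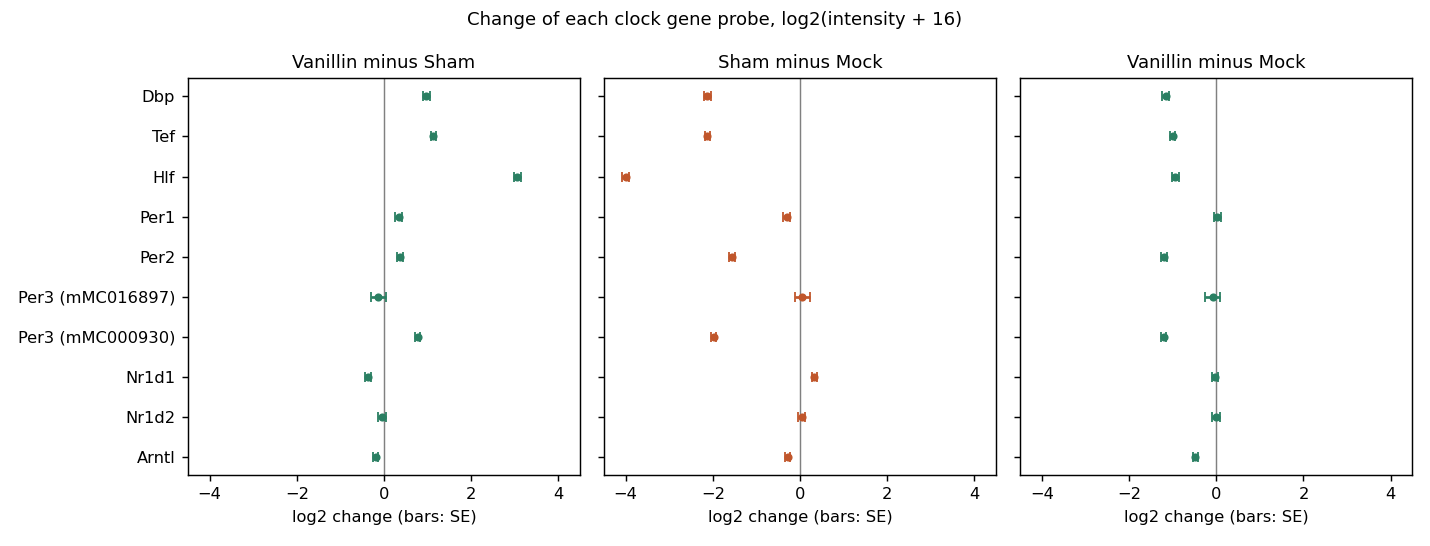
Change of each clock gene probe on the scale of log2(intensity + 16), with SE as bars, in Vanillin minus Sham, Sham minus Mock and Vanillin minus Mock. Hlf lies farthest from 0 in the first of these and in Sham minus Mock (3.06 and -4.00), while Per3 mMC016897 and Nr1d2 lie near 0 in all 3 panels.

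Of 11 other core clock genes, 9 were analysed, and 4 of them had a mean intensity below 50 in Sham. In Sham minus Mock 5 rose, 3 fell and 1 was not called (median 0.20). In Vanillin minus Sham 2 rose, 1 fell and 6 were not called (median -0.07). In Vanillin minus Mock 2 rose, 3 fell and 4 were not called (median -0.01). The medians over all probes were 0.10, -0.09 and -0.00 in the same order, and 59.7%, 47.9% and 50.7% of all probes were called. In Sham minus Mock 36.5% of all probes were called higher and 23.2% lower.

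Rora, which activates Arntl through the element that REV-ERB represses, had the largest change of that list in Sham minus Mock and Vanillin minus Sham, though not in Vanillin minus Mock. Rora had 3980, 4119 and 3925 in Vanillin and 403, 338 and 342 in Sham, against 5088, 4807 and 4552 in Mock. It fell by 3.68 in Sham minus Mock (SE 0.074, limma adjusted p = 3.1e-10), rose by 3.42 in Vanillin minus Sham (adjusted p = 1.1e-09) and fell by 0.26 in Vanillin minus Mock (adjusted p = 0.016). The order of groups was that of Dbp, Tef and Hlf, with Vanillin close to Mock.

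Npas2, which can replace CLOCK as the partner of ARNTL, went the other way in Sham minus Mock and Vanillin minus Sham. It had 551, 480 and 457 in Vanillin and 1336, 1179 and 1278 in Sham, against 604, 603 and 576 in Mock. Npas2 rose by 1.07 in Sham minus Mock (SE 0.076, limma adjusted p = 2.2e-06) and fell by 1.33 in Vanillin minus Sham (adjusted p = 1.4e-06), with 0.75 and -0.96 on its second probe. Sham was thus the highest group on both probes of Npas2, as it was for Nr1d1. In Vanillin minus Mock Npas2 fell by 0.26 (limma adjusted p = 0.0197), with -0.22 on its second probe. The D-box repressor Nfil3 had 1254, 1255 and 1192 in Vanillin and 1318, 1434 and 1270 in Sham, against 918, 939 and 911 in Mock. Nfil3 rose by 0.53 in Sham minus Mock (limma adjusted p = 3.0e-05) and by 0.41 in Vanillin minus Mock (adjusted p = 0.00024), and was not called in Vanillin minus Sham. Clock and the E-box repressor Bhlhe40 rose by 0.20 and 0.26 in Sham minus Mock and were not called in the other comparisons. The related Bhlhe41 was dim, with group means of 47.4 in Vanillin, 46.3 in Sham and 76.9 in Mock.

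Genes whose products act on clock proteins were taken as a further list. Of 11, 9 were analysed: 4 rose and none fell in Sham minus Mock (median 0.09), 3 fell and none rose in Vanillin minus Sham (median -0.07), and 4 rose and 2 fell in Vanillin minus Mock (median 0.10). Of all probes, 36.5% were called higher in Sham minus Mock and 32.2% lower in Vanillin minus Sham. For Vanillin minus Mock the shares were 24.5% higher and 26.2% lower. The all-probe medians were 0.10, -0.09 and -0.00 in the same order. The kinase gene Prkaa1, a subunit of AMP-activated kinase, had the largest change of the list in Sham minus Mock (0.73), and the kinase gene Gsk3b had the largest in Vanillin minus Sham (-0.52). Csnk1d and Csnk1e encode kinases that phosphorylate the PER proteins. Csnk1d was called in none of the comparisons, and Csnk1e rose by 0.18 in Sham minus Mock and by 0.26 in Vanillin minus Mock.

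All 6 genes listed as rhythmic in many mouse tissues had a probe. In Sham minus Mock 4 fell and 2 were not called (median -0.25). In Vanillin minus Sham 5 rose and 1 was not called (median 0.24). In Vanillin minus Mock 2 rose, 2 fell and 2 were not called (median -0.05). Over all probes, 23.2% were called lower in Sham minus Mock (median 0.10) and 15.7% higher in Vanillin minus Sham (median -0.09). For Vanillin minus Mock these shares were 24.5% higher and 26.2% lower (median -0.00). Nampt, 1 of the 2 that rose there, changed by 0.25, but its other probe changed by -0.13. The deubiquitinase gene Usp2 had 464, 455 and 503 in Vanillin and 115, 102 and 111 in Sham, against 942, 927 and 916 in Mock. Usp2 fell by 2.92 in Sham minus Mock (SE 0.058, limma adjusted p = 2.7e-10) and rose by 1.97 in Vanillin minus Sham (adjusted p = 1.0e-08), and its 3 groups did not overlap. Tsc22d3, a glucocorticoid-induced leucine zipper gene, fell by 0.97 in Sham minus Mock and by 0.80 in Vanillin minus Mock, and rose by 0.17 in Vanillin minus Sham. Wee1, a cell cycle kinase gene under clock control in mouse liver, fell by 0.27 in Sham minus Mock and was not called in the other comparisons. Ciart, a repressor in the loop, was dim (32.4 in Vanillin, 25.3 in Sham and 33.0 in Mock).

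Glucocorticoids can set the phase of tissue clocks and induce Per1, so a list of 7 responsive genes was set beside the members. In Sham minus Mock 5 fell and 2 were not called (median -0.46), in Vanillin minus Sham 3 rose and 4 were not called (median 0.17), and in Vanillin minus Mock 4 fell, 1 rose and 2 were not called (median -0.33). Of all probes, 59.7%, 47.9% and 50.7% were called in these comparisons, with medians of 0.10, -0.09 and -0.00. The transcription factor gene Zbtb16 fell by 1.14 in Sham minus Mock and fell by 1.22 in Vanillin minus Mock, with means of 114 in Vanillin and 121 in Sham, against 286 in Mock. The chaperone gene Fkbp5 fell by 0.46 and 0.64 in the same comparisons. Dusp1, a phosphatase gene that acts on MAP kinases, had its highest level in Vanillin (16315, against 8149 in Sham and 9819 in Mock), and rose by 1.00 in Vanillin minus Sham. Angptl4, which encodes an inhibitor of lipoprotein lipase, had the largest changes of the list in Sham minus Mock (-1.30) and Vanillin minus Sham (1.16), with means of 2747 in Vanillin and 1222 in Sham, against 3033 in Mock. Angptl4 thus had the order of groups of Dbp, although Vanillin minus Mock (-0.14) was not called. Tsc22d3, which is also counted among the rhythmic genes, had that order as well and was called in every comparison. Its means were 5810 in Vanillin and 5155 in Sham, against 10143 in Mock. Zbtb16, Fkbp5, Dusp1, Sgk1 and Klf9 did not have that order.

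**Figure D3:**
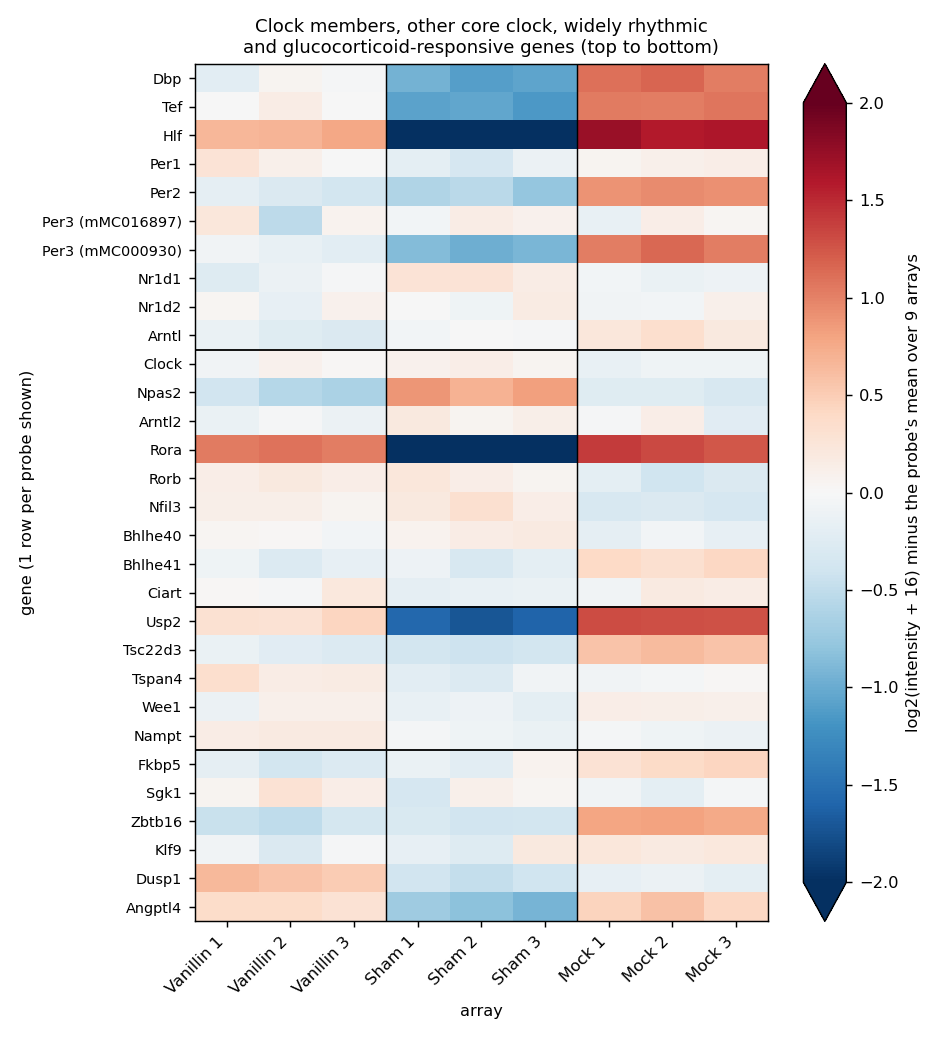
Level of each gene on every array, as log2(intensity + 16) minus that probe's mean over the 9 arrays, for the clock members, other core clock genes, widely rhythmic genes and glucocorticoid-responsive genes (blocks from top to bottom), with Vanillin, Sham and Mock from left to right. Hlf and Rora pass the lower end of the colour scale in Sham, and Npas2 is high in the 3 Sham arrays.

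The genes whose array profile was most like that of Dbp were sought among the 5078 named probes that spanned at least 1 on the log2 scale over the 9 arrays, Dbp included. Likeness was the root-mean-square difference between the profiles over the 9 arrays after each probe's own mean was removed. The 5 closest genes outside the members were Gpt (0.075), Zfp185 (0.084), Rspo1 (0.084), P3h2 (0.084) and Trim72 (0.086). Gpt, which encodes an alanine aminotransferase, had means of 1553 in Vanillin, 810.3 in Sham and 3524 in Mock. Trim72, a membrane repair gene of skeletal muscle, had means of 167 in Vanillin, 78.5 in Sham and 381 in Mock. Among the members Tef came 13 in rank (0.11) and Per3 mMC000930 came 25 (0.13), ahead of Per2 at 400 (0.31) and Hlf at 2152 (0.94). Per1, Per3 mMC016897, Nr1d1, Nr1d2 and Arntl spanned less than 1 and so were not ranked. Since the 9 arrays fall into 3 groups, this likeness mostly compares 3 group levels.

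The order of groups shared by Dbp, Tef, Hlf, Per2, Per3 mMC000930, Rora and Usp2 was also that of marker lists for tissues other than colon epithelium. The summed intensity of 11 squamous epithelium markers was 284250 to 337003 in Vanillin and 23181 to 24144 in Sham, against 470804 to 472848 in Mock. The low end in Vanillin came from Krt14, at 11506 in Vanillin 3 against 64969 and 63608 in Vanillin 1 and 2. All 11 fell in Sham minus Mock and 10 rose in Vanillin minus Sham, where Krt14 was not called. Among all probes, 23.2% were called lower in Sham minus Mock and 15.7% higher in Vanillin minus Sham. In Sham the means of Krt1, Ivl, Sprr1b and Krtdap were below 50. The Sham arrays had by far the lowest sums of these markers. The sum of 9 colonocyte and epithelium markers ran from 220213 to 230157 in Vanillin and 222049 to 236894 in Sham, against 263934 to 274303 in Mock. This sum hides opposite moves. In Sham minus Mock 3 rose, 3 fell and 3 were not called, from -2.98 (Slc26a3) to 3.13 (Cdx2). In Vanillin minus Sham 5 fell and 4 were not called. Beside these, 36.5% of all probes were called higher in Sham minus Mock and 32.2% lower in Vanillin minus Sham. Epcam and Lgals4, the brightest of the list in every group, were called in no comparison. Both were near saturation (Epcam on all arrays but Sham 3), where a change can go unseen. The other probe of Epcam changed by 0.25 in Sham minus Mock, -0.23 in Vanillin minus Sham and 0.02 in Vanillin minus Mock. Some markers of both lists were near saturation, among them Krt10 in Mock and Vanillin and Lgals4 in every group, so these sums may understate differences.

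For 4 measured skeletal muscle markers the sum was 40054 to 46296 in Vanillin and 2321 to 2436 in Sham, against 102193 to 110769 in Mock, and all 4 fell in Sham minus Mock and rose in Vanillin minus Sham. For 8 adipocyte markers it was 104528 to 107899 in Vanillin and 21827 to 22766 in Sham, against 117145 to 118891 in Mock, with 7 lower in Sham minus Mock and 7 higher in Vanillin minus Sham. Lpl, a lipase gene, made up most of the adipocyte sum in Sham (mean 19087) and rose by 0.18 in Sham minus Mock, so the sum understates the fall of the other 7. Among all probes, 23.2% were called lower in Sham minus Mock and 15.7% higher in Vanillin minus Sham. In Sham the mean of the adipocyte marker Lep was below 50. The sums of both lists separated Sham from both other groups, and also Vanillin from Mock. In Vanillin minus Mock all 4 skeletal muscle and 5 of the 8 adipocyte markers fell, where 26.2% of all probes were called lower.

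For 6 hair follicle markers the sum was 36166 to 38585 in Vanillin and 1338 to 1366 in Sham, against 72759 to 77887 in Mock, with Krt25 and Msx2 below 50 in Sham. All 6 fell in Sham minus Mock and rose in Vanillin minus Sham. Among all probes, 23.2% were called lower in Sham minus Mock, 15.7% higher in Vanillin minus Sham and 26.2% lower in Vanillin minus Mock. For 5 smooth muscle markers the sum was 46439 to 49726 in Vanillin and 40278 to 43016 in Sham, against 93183 to 94576 in Mock, and all 5 fell in both AOM/DSS groups against Mock. The smooth muscle sums thus had Vanillin near Sham, as Per2 did, although 4 of the 5 markers rose in Vanillin minus Sham. Acta2 made up most of these sums, with means of 40824 in Vanillin, 36624 in Sham and 65427.5 in Mock. It was near saturation in Mock, so the smooth muscle sums may understate differences from Mock. In Sham minus Mock Acta2 changed by -0.84 on the probe used and by -1.94 on its other probe. The 5 cell cycle markers summed to 15391 to 16071 in Vanillin and 21778 to 22576 in Sham, against 7569 to 7842 in Mock. PAR bZIP and Period genes are transcribed in many tissues, and the part of these tissues in the clock gene changes was not tested. In such bulk samples fewer cells of a type and less RNA per cell cannot be told apart.

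**Figure D4:**
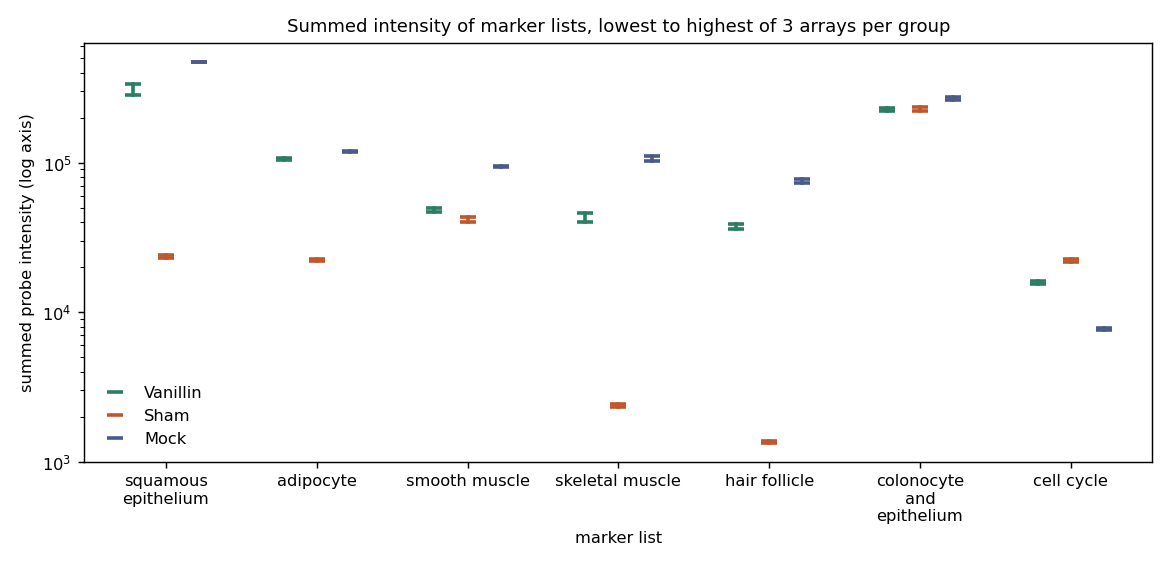
Summed probe intensity (log axis) of 7 marker lists, with a bar from the lowest to the highest of the 3 arrays in Vanillin, Sham and Mock. The squamous epithelium, adipocyte, smooth muscle, skeletal muscle and hair follicle sums are lowest in Sham. The colonocyte and epithelium sums of Vanillin and Sham overlap.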

How the data were processed

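Colon RNA of 9 samples was measured on single-colour arrays. The dye was Cy5 on amplified RNA, per the labels. The submitters' processing notes name limma without a role. The deposited values are each probe's intensity on a linear scale. From the values, the authors had subtracted background (3 to 14 probes per array lie below 0) and equalised the distributions (sorted log2 values differ by at most 0.109 between arrays). The scanner and any filter on probes are not stated in the labels.

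Negative values were set to 0 and log2(intensity + 16) was fitted for all 26423 probes and 9 arrays with limma 3.58.1 in R 4.3.3 (3 group means, eBayes without trend, two-sided, 6 residual and 2.69 prior degrees of freedom). P-values were adjusted by Benjamini-Hochberg over all probes within a comparison, and a probe was called, and said to rise or fall, at an adjusted p under 0.05. The number of arrays limits the precision. Symbols came from the platform's probe table (1 symbol for 20377 probes, none for 6046), updated through RefSeq synonyms. Lists used the brightest probe of a gene. Correlations within a group were 0.995 to 0.998. The members, lists and motifs were chosen with earlier results of these data known. Named in the text are all member probes, genes of the fixed lists and the 5 profiles nearest to Dbp.

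Groups share replicate numbers in the labels. Deviations from the group mean correlated at 0.126 to 0.201 between same-numbered Vanillin and Sham arrays. These were treated as pairs in an alternative added after seeing the data. Same-numbered arrays of Mock and the other groups correlated at -0.288 to -0.0162. Differently numbered arrays ran from -0.203 to 0.0017 between Sham and Vanillin, but reached 0.215 between Mock and Vanillin. The values alone thus do not show pairing. Alternatives were other pseudocounts, a filter on dim probes, a variance trend, fewer arrays, array weights, repeated quantile normalization, the block and leaving out each array.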

Additional observations from a re-analysis of the deposited data

How the results depend on the processing

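Under every alternative run, the counts of probes called stayed within 1.5 times those reported. They ran from 13220 to 17268 in Sham minus Mock, 10802 to 14080 in Vanillin minus Sham and 11444 to 17660 in Vanillin minus Mock. Of the 9 member probes other than Dbp, 7 were called in Sham minus Mock in each setting, 6 or 7 in Vanillin minus Sham and 5 or 6 in Vanillin minus Mock. The replicate block over all 9 arrays gave 7, 7 and 5 member probes. In the 6 arrays of Vanillin and Sham, the replicate block gave 6, since Arntl had an adjusted p = 0.0639, and changed no other member's call. The Per3 probe mMC016897 was called with array weights in Vanillin minus Mock (-0.38, limma adjusted p = 0.0374), and the cause was not tested. No called change of a member turned its direction. Dbp ran from -2.17 to -2.09 in Sham minus Mock and from 0.91 to 1.05 in Vanillin minus Sham. For Hlf, the dimmest member in Sham, the size of a change depends on the pseudocount (2.41 with 64 and 3.38 with 1 in Vanillin minus Sham). With 3 arrays per group, small differences such as those of Nr1d2 may go undetected.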
